A study of Mus musculus with 8 samples.

Results

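The elastic microfibril genes described here are 10 genes of the 22609 symbols in the gene count tables: the fibrillins Fbn1 and Fbn2, the microfibril-associated genes Mfap2, Mfap4 and Mfap5, elastin (Eln), the fibulins Fbln1, Fbln2 and Fbln5, and lysyl oxidase (Lox). The set was built around Mfap2 and its partners, and the members were chosen by name with the genotype values of these same counts known, above all the low Mfap2 counts of most iBmp2ko/ko libraries. The genotype values of the set are therefore given as a description, without a test. The cells are immortalized mouse dental papilla cells, the mesenchymal cells of the tooth germ from which odontoblasts arise. The iBmp2fx/fx line carries Bmp2 alleles flanked by loxP sites, and the iBmp2ko/ko line carries the deleted alleles. Each genotype is represented by 1 immortalized line, so a difference between the genotypes cannot be told apart from a difference between the lines. One library of total RNA was sequenced per genotype at 6, 24, 48 and 72 h of culture, which gave 8 libraries with 25890110 to 32415665 reads counted on genes. The study's methods name the times 6, 48 and 72 h, and comparisons therefore rest on these 6 libraries, with 3 per genotype. The culture times serve as replicates, and no source says that the libraries came from separate cultures, so replicate spread here also holds whatever changed over time. Levels are given as CPM, the read count of a gene scaled to a fixed total of reads counted on genes, and 3 reads, taken as the smallest detectable number, correspond to 0.0925 to 0.116 CPM. Means are given with the SD over 3 libraries (n = 3).

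Elastic fibres consist of an amorphous core of elastin and a mantle of microfibrils. The microfibrils are polymers of fibrillin, and the small glycoproteins MAGP-1 (encoded by Mfap2) and MAGP-2 (encoded by Mfap5) bind along them. Fibulins bring tropoelastin, fibrillin and the cross-linking enzymes together, and lysyl oxidase oxidizes lysine residues so that elastin and collagen can be cross-linked. Fibrillin microfibrils also bind the latent complexes of TGF-beta and several BMP prodomains, and they are a known part of the matrix of dental pulp and periodontal ligament.

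The identity of the libraries was examined first. Bmp2 was counted with 1 read in iBmp2fx/fx 24 h and 0 in the other 7 libraries, so its level does not check the genotypes. Of 13 markers of dental mesenchyme, 11 exceeded 1 CPM in all libraries, whereas Lhx8 and Barx1 had at most 3 reads. Their sum covered 6892 to 8931 CPM in the iBmp2fx/fx and 9216 to 13524 CPM in the iBmp2ko/ko libraries of 6, 48 and 72 h, mostly from Col1a1, Col1a2 and Vim. The transcription factors of the list ran the other way and did not overlap between the groups for Dlx2 (48.8 ± 7.25 against 8.25 ± 7.77 CPM), Dlx1 (9.88 ± 1.98 against 4.93 ± 2.06 CPM), Msx1 (7.03 ± 0.145 against 4.06 ± 0.565 CPM), Msx2, Lhx6 and Twist1, whereas Pax9 (2.10 ± 0.146 against 3.02 ± 0.470 CPM) was higher in the iBmp2ko/ko libraries (SD, n = 3 each). Smooth muscle and pericyte markers, which contractile mesenchymal cells also express, summed to 682 to 1545 and 681 to 2298 CPM. The lists of other cell types were low. The 6 immune markers summed to 4.34 to 14.2 CPM in the iBmp2fx/fx and 2.78 to 3.56 CPM in the iBmp2ko/ko libraries, with at most 3 reads for Ptprc, Emr1 and Itgam, whereas Cd68 (6.87 ± 4.79 against 2.53 ± 0.36 CPM) and Csf1r (1.301 ± 0.476 against 0.417 ± 0.175 CPM) were counted and did not overlap between the groups (SD, n = 3 each). Of the dental epithelium markers, Krt14 had 1.08 ± 0.17 against 0.412 ± 0.271 CPM. The 5 markers of endothelium summed to 1.88 to 3.41 and 1.51 to 3.66 CPM, mostly from Kdr (1.92 ± 0.696 against 0.759 ± 0.169 CPM) and Tek (0.473 ± 0.126 against 1.46 ± 0.947 CPM). The 5 odontoblast markers summed to 0.958 to 2.50 and 1.14 to 1.58 CPM, mostly from Bglap and Phex, with 0.179 ± 0.0765 against 0.0129 ± 0.0223 CPM for Dmp1 and at most 3 reads for Dspp and Ibsp. The 4 cartilage markers summed to 32.5 to 48.6 and 20.5 to 28.3 CPM, mostly from Sox9 (36.3 ± 8.66 against 23.4 ± 3.55 CPM). Dmp1, Krt14, Kdr, Tek, Cspg4, Sox9 and Col2a1 (2.48 ± 0.118 against 0.931 ± 0.604 CPM) did not overlap between the groups either. Nor did Vim (1404 ± 153 against 2309 ± 699 CPM), whereas Prrx1 overlapped. Of all genes tested, 19.3% did not overlap. The part of these markers in the results was not tested. The library labelled iBmp2ko/ko 24 h stood apart from its group. Over 13121 genes its nearest library was iBmp2fx/fx 6 h, at a root mean square distance of 0.202 in log2(CPM + 0.1), against 0.467 to 0.773 from the other iBmp2fx/fx libraries and 0.766 to 0.989 from the iBmp2ko/ko libraries of 6, 48 and 72 h. This was the smallest distance of all pairs of libraries, and the next was 0.376, between iBmp2fx/fx 24 h and 48 h. The chi-square of the close pair averaged 5.25 per gene over 12178 genes with a median of 1.11, against 42.5 and 6.03 for the next pair, so the counts differed by more than counting noise and both libraries were kept. Whether they come from 1 RNA was not tested. The libraries of 24 h enter no mean below because the study's methods do not name that time. The library labelled iBmp2ko/ko 24 h is also shown apart because of the distances above. Whether its label is right was not tested, and its values are not counted below as an iBmp2ko/ko observation.

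Promoter sequences are given to show what lies at the start sites of the member with the lowest relative level in the iBmp2ko/ko cells and of a widely expressed member of each other main class of the scaffold. RefSeq promoter windows (GRCm38.p6, from 250 bases before to 50 bases after a start site) were found for 5 of the 10 genes in 8 windows: Mfap2, Fbn1, Fbln1, Fbln2 and Fbln5. Capitals mark matches on either strand to 4 short sequences. The first is CAGAC, a core sequence bound by Smad proteins. The second is GGCGCC, a palindrome found within GC-rich BMP response elements. The third, TATAAA, stands for a TATA-type core promoter, and the fourth, CANNTG, is the E-box. The windows below are the more upstream of the 2 start sites of Mfap2 (chr4:141010174-141010473, plus strand), the start site of Fbn1 (chr2:125506389-125506688, minus strand) and the more upstream of the 2 start sites of Fbln5 (chr12:101819070-101819369, minus strand), each written 5′ to 3′ along the gene.
Mfap2: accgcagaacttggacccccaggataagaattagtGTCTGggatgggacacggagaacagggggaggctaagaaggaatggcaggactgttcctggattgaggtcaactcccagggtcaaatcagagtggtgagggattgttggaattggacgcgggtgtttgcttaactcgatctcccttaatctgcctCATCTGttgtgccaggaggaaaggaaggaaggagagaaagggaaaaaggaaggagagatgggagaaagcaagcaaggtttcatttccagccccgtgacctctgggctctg
Fbn1: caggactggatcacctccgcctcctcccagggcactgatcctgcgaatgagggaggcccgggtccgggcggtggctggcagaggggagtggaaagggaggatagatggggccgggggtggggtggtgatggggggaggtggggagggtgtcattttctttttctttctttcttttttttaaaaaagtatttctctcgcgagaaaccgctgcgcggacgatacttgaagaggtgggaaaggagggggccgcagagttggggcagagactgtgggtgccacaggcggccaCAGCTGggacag
Fbln5: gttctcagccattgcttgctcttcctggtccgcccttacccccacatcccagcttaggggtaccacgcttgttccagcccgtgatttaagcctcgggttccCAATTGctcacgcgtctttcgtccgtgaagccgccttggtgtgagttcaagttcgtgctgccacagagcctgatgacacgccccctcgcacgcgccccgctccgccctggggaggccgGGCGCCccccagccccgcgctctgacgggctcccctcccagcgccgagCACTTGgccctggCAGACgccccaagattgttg
The Mfap2 window held 1 CAGAC match, on the other strand at position -215 from the start site, and 1 E-box at position -60, whereas the window of its other start site (chr4:141010431-141010730) held none of the 4 sequences. Fbn1 had 1 E-box, at position 39. Fbln5 had GGCGCC at position -31, CAGAC at position 31 and 2 E-boxes. Of the windows not shown, that of Fbln2 held 1 E-box and none of the other 3 sequences, each of the 2 windows of Fbln1 held 2 CAGAC matches, 2 E-boxes and no GGCGCC, and the other window of Fbln5 held 2 CAGAC matches and 1 GGCGCC. No window held TATAAA. Among all 32851 windows of this length, 49.6% held CAGAC, 11.9% GGCGCC, 13.6% TATAAA and 72.3% an E-box. The GC content was 52% for the Mfap2 window shown, 68% for its other window, 60.3% for Fbn1 and 65.7% for Fbln5, against a mean of 53.8% over all windows. A match describes these letters and says nothing of binding.

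Mfap2 and Mfap5, whose RNA encodes the microfibril-associated glycoproteins, exchanged rank within the pair between the genotypes. Mfap2 (ENSMUSG00000060572.10, chromosome 4 of mm9, 140566333 to 140571899, plus strand) had 281, 294, 402 and 271 reads in the iBmp2fx/fx libraries of 6, 24, 48 and 72 h. The iBmp2ko/ko counts were 12 (6 h), 8 (48 h) and 1 (72 h). The library labelled iBmp2ko/ko 24 h held 256 reads of Mfap2, within the range of the iBmp2fx/fx libraries when scaled by depth. In CPM the iBmp2fx/fx libraries held 9.04, 10.4, 12.4 and 8.66, and the iBmp2ko/ko libraries 0.408, 9.87, 0.262 and 0.0386 in the same order of times. The iBmp2ko/ko level was thus 4.52% of the iBmp2fx/fx level at 6 h and 2.11% at 48 h, whereas the libraries of 24 h were nearly equal. Over the 6 libraries the mean was 10.03 ± 2.06 CPM in the iBmp2fx/fx and 0.236 ± 0.186 CPM in the iBmp2ko/ko cells (SD, n = 3 each), a 42.5-fold lower mean, or 38.3-fold when the library with 1 read is set to the floor of 3 reads. The log2 fold change in edgeR was -5.36 (SE 0.62), and the groups of 3 did not overlap.

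Mfap5 (chromosome 6 of mm9, 122455863 to 122479308, plus strand), which encodes the other MAGP, showed the opposite pattern. It had 5, 6, 9 and 5 reads in the iBmp2fx/fx libraries of 6, 24, 48 and 72 h, against 248 (6 h), 197 (48 h) and 62 (72 h) in the iBmp2ko/ko libraries. The library labelled iBmp2ko/ko 24 h had 7 reads, again at the iBmp2fx/fx level. The means were 0.199 ± 0.0678 CPM in the iBmp2fx/fx and 5.76 ± 3.08 CPM in the iBmp2ko/ko cells (SD, n = 3 each), a 28.9-fold higher mean with a log2 fold change of 4.81 (SE 0.59). The lowest of these iBmp2ko/ko libraries, that of 72 h, still held 2.39 CPM against 0.278 CPM in the highest iBmp2fx/fx library.

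As a share of all reads on the pair, Mfap2 supplied 98.3, 98.0, 97.8 and 98.2% in the iBmp2fx/fx libraries of 6, 24, 48 and 72 h. In the iBmp2ko/ko libraries its share was 4.62% at 6 h (exact 95% binomial interval 2.41 to 7.92), 3.90% at 48 h (1.70 to 7.54) and 1.59% at 72 h (0.0402 to 8.53). The library labelled iBmp2ko/ko 24 h gave 97.3% (94.6 to 98.9), so its interval overlapped those of the iBmp2fx/fx libraries and lay far from those of the other iBmp2ko/ko libraries. These intervals cover counting error only. With the reads divided by exonic length, Mfap2 made up 99.3 to 99.4% of the pair in the iBmp2fx/fx libraries and 12.5, 10.7 and 4.56% in the iBmp2ko/ko libraries of 6, 48 and 72 h. The order within the pair thus changed on either scale, but the levels were not exchanged. Per kilobase of exonic length, Mfap5 had 1.60 ± 0.858 CPM in the iBmp2ko/ko cells, below the 8.28 ± 1.70 CPM of Mfap2 in the iBmp2fx/fx cells (SD, n = 3 each).

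**Figure D1:**
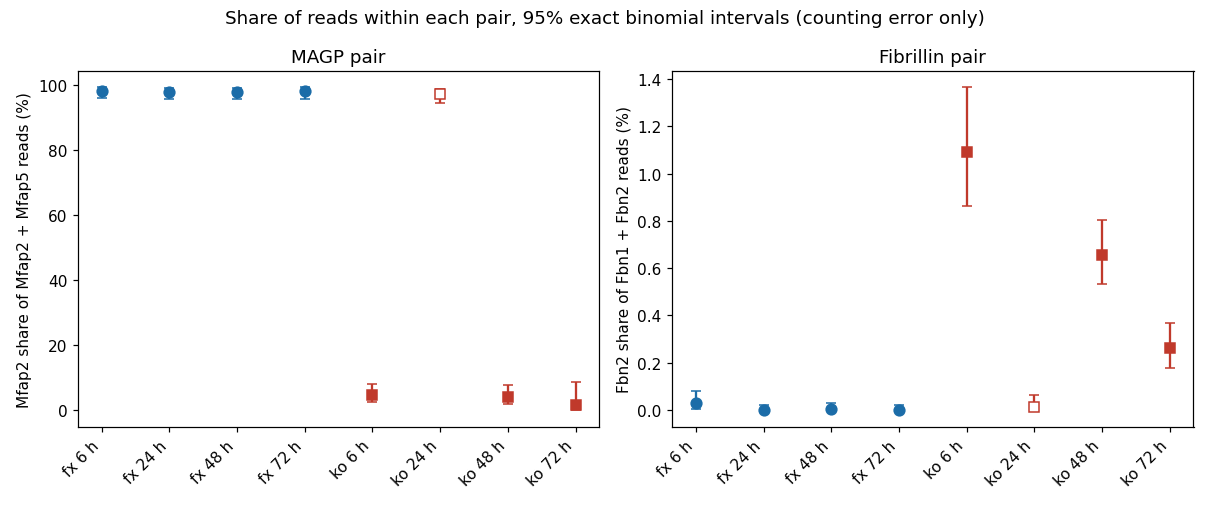
Share of reads of Mfap2 in the sum of Mfap2 and Mfap5, and of Fbn2 in the sum of Fbn1 and Fbn2, in percent, by library, with exact 95% binomial intervals (counting error only). Mfap2 supplied 97.8 to 98.3% of its pair in the iBmp2fx/fx libraries and 1.59 to 4.62% in the iBmp2ko/ko libraries of 6, 48 and 72 h, while the library labelled iBmp2ko/ko 24 h lay at 97.3%.

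Mfap4 encodes a fibrinogen-related glycoprotein that associates with elastin and fibrillin. Mfap4 (chromosome 11 of mm9, 61298933 to 61302402, plus strand) was close to the detection limit, with 2, 0, 1 and 0 reads in the iBmp2fx/fx and 8, 1, 3 and 2 reads in the iBmp2ko/ko libraries of 6, 24, 48 and 72 h. Its groups of 3 did not overlap, but only the iBmp2ko/ko library of 6 h exceeded 3 reads. Mfap4 was the only member that did not pass the filter on low counts, and it was not tested.

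Of the fibrillins, Fbn1 was abundant in both lines with overlapping groups, and Fbn2 had more reads in the iBmp2ko/ko cells. Fbn1 (chromosome 2 of mm9, 125126330 to 125333729, minus strand), the main fibrillin of postnatal microfibrils, had 350, 588, 548 and 607 CPM in the iBmp2fx/fx libraries of 6, 24, 48 and 72 h and 234, 344, 474 and 458 CPM in the iBmp2ko/ko libraries. The iBmp2ko/ko level was 66.9% (6 h), 86.5% (48 h) and 75.4% (72 h) of the iBmp2fx/fx level, and the groups overlapped. The library labelled iBmp2ko/ko 24 h, at 344 CPM, was close to iBmp2fx/fx 6 h. The means were 502 ± 135 and 389 ± 134 CPM (SD, n = 3 each), with a log2 fold change of -0.37 (SE 0.35), so the difference was smaller than the spread between culture times.

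Fbn2, the fibrillin most used in developing tissue, was almost without reads in the iBmp2fx/fx cells, with 3, 0, 1 and 0 reads at 6, 24, 48 and 72 h. The iBmp2ko/ko libraries had 76 (6 h), 96 (48 h) and 31 (72 h) reads, and the library labelled iBmp2ko/ko 24 h had 1. The iBmp2ko/ko mean was 2.31 ± 1.00 CPM (SD, n = 3), at least 24.3-fold higher than in the iBmp2fx/fx cells with each of their libraries at the floor of 3 reads or its own higher count. The fitted log2 fold change of 5.64 (SE 0.79) depends on the prior count, and without the iBmp2fx/fx library of 6 h, which held 3 of the 4 iBmp2fx/fx reads at these times, it was 6.83. Even so, Fbn2 supplied only a small part of the fibrillin reads in the iBmp2ko/ko cells, with 1.09% at 6 h (0.862 to 1.37), 0.658% at 48 h (0.533 to 0.803) and 0.261% at 72 h (0.177 to 0.370). In the iBmp2fx/fx libraries this share was at most 0.0276%.

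Elastin itself was scarce. Eln (chromosome 5 of mm9, 135179651 to 135223111, minus strand), which encodes the soluble precursor tropoelastin, had 50, 15, 45 and 11 reads in the iBmp2fx/fx libraries of 6, 24, 48 and 72 h and 22, 31, 16 and 1 reads in the iBmp2ko/ko libraries. The means were 1.12 ± 0.671 and 0.437 ± 0.363 CPM (SD, n = 3 each), and the groups overlapped. The iBmp2ko/ko level was lower at 6, 48 and 72 h, and at 24 h the library labelled iBmp2ko/ko held 2.26 times the iBmp2fx/fx level. The log2 fold change was -1.32 (SE 0.86). With the culture time as a block it was -1.42 (SE 0.38).

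The fibulins were abundant in both lines, with log2 fold changes below 1 in size. Fbln2 (chromosome 6 of mm9, 91162449 to 91222534, plus strand), whose product binds fibrillin-1 and tropoelastin, had 611, 1081, 847 and 680 CPM in the iBmp2fx/fx libraries and 905, 578, 1028 and 1590 CPM in the iBmp2ko/ko libraries of 6, 24, 48 and 72 h. The 3 iBmp2ko/ko libraries of 6, 48 and 72 h lay above all 3 of the iBmp2fx/fx cells at these times, with means of 1174 ± 366 and 713 ± 122 CPM (SD, n = 3 each), a ratio of 1.65. The log2 fold change was 0.73 (SE 0.29), or 0.69 (SE 0.18) with the culture time as a block. The iBmp2fx/fx library of 24 h, at 1081 CPM, fell inside the iBmp2ko/ko range, so the separation holds over the 6 libraries only.

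Fbln5 (chromosome 12 of mm9, 102984775 to 103057265, minus strand), which is needed for elastic fibre assembly and tethers tropoelastin to microfibrils, had 192, 248, 224 and 124 CPM in the iBmp2fx/fx and 314, 195, 413 and 192 CPM in the iBmp2ko/ko libraries. The ratio of iBmp2ko/ko to iBmp2fx/fx was 1.64 (6 h), 1.85 (48 h) and 1.55 (72 h). For the library labelled iBmp2ko/ko 24 h the ratio to iBmp2fx/fx 24 h was 0.785. The means were 306 ± 111 and 180 ± 51.1 CPM (SD, n = 3 each) with a log2 fold change of 0.77 (SE 0.32), and the groups overlapped because both lines were lowest at 72 h. With the culture time as a block the log2 fold change was 0.75 (SE 0.11). Fbln1 (chromosome 15 of mm9, 85036379 to 85116965, plus strand), a fibulin of basement membranes and elastic fibres, had 106, 132, 131 and 90.0 CPM against 77.6, 103, 135 and 71.5 CPM. It was the only member whose genotype difference changed sign among 6, 48 and 72 h. Its log2 fold change was -0.20 (SE 0.28), or -0.24 (SE 0.12) with the block.

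Lox, the enzyme that starts the cross-linking of elastin and collagen, was abundant in both lines. It had 957, 1293, 1582 and 1227 CPM in the iBmp2fx/fx libraries of 6, 24, 48 and 72 h and 472, 988, 1196 and 925 CPM in the iBmp2ko/ko libraries. The iBmp2ko/ko level was 49.3% (6 h), 75.6% (48 h) and 75.4% (72 h) of the iBmp2fx/fx level. The library labelled iBmp2ko/ko 24 h, at 988 CPM, was close to the 957 CPM of iBmp2fx/fx 6 h. The means were 1255 ± 314 and 864 ± 366 CPM (SD, n = 3 each), with overlapping groups and a log2 fold change of -0.53 (SE 0.38). With the culture time as a block the log2 fold change was -0.61 (SE 0.15).

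**Figure D2:**
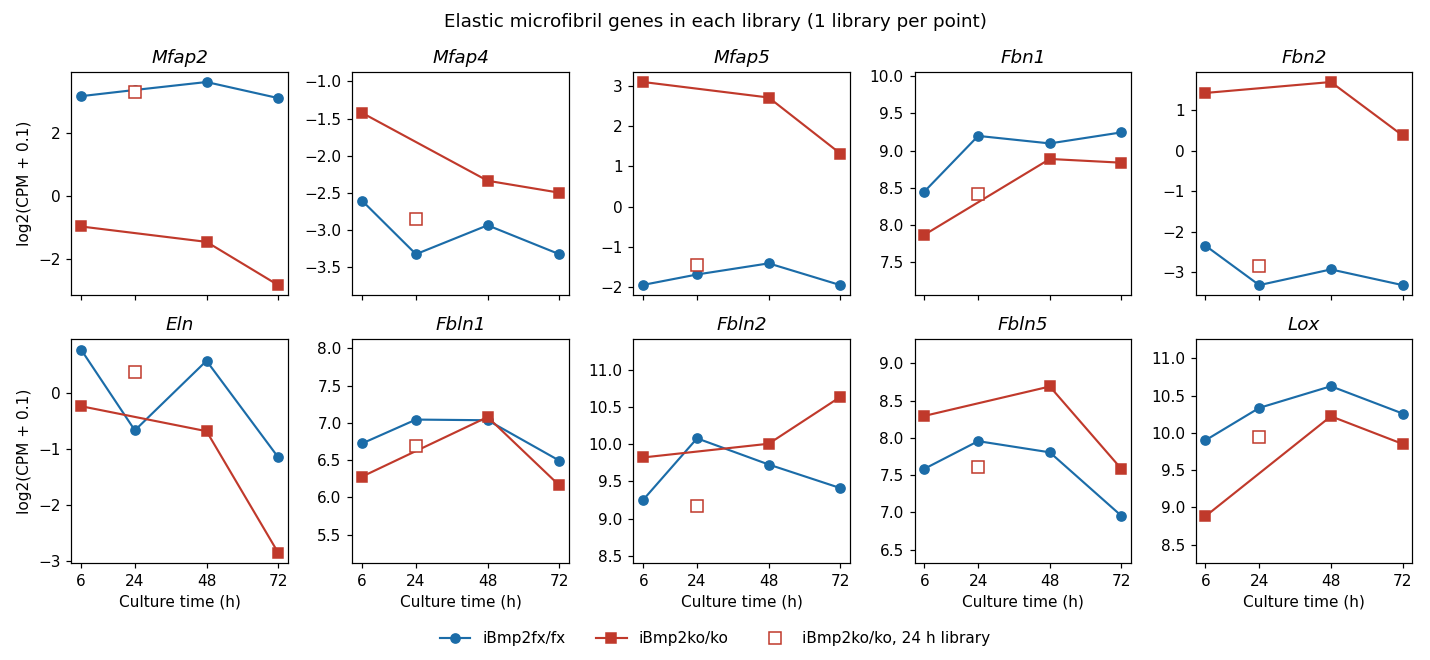
Log2(CPM + 0.1) of each of the 10 genes against culture time in hours, for the iBmp2fx/fx (circles) and iBmp2ko/ko (squares) libraries, with 1 point per library, an own vertical range for each gene and the library labelled iBmp2ko/ko 24 h as an open square off the line. Mfap2 lay at 8.66 to 12.4 CPM in the iBmp2fx/fx libraries and at 0.0386 to 0.408 CPM in the iBmp2ko/ko libraries of 6, 48 and 72 h, whereas Mfap5 and Fbn2 were higher in these iBmp2ko/ko libraries.

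With a limit of an absolute log2 fold change of at least 1 and an edgeR adjusted p of at most 0.05, 2 of the 9 members that passed the filter were higher in the iBmp2ko/ko cells (Mfap5 and Fbn2) and 1 was lower (Mfap2). Among all 13121 genes tested, 2.19% passed the same limit. The study names more than one limit. Under the one in its text, a log2 change over 1 in size and p below 0.05 without adjustment, the same counts of 2 and 1 were obtained, against 7.35% of all genes. With the culture time as a block the counts were 2 and 2 (Eln was added), against 8.45% of all genes, and without either library of 48 h they were 0 and 0. Mfap5 and Fbn2 passed the filter on low counts only through the iBmp2ko/ko libraries and Mfap2 only through the iBmp2fx/fx libraries, in which they were high, so a difference was built into their being counted. Among the 9 members that passed the filter, the groups of 3 did not overlap for Mfap2, Mfap5, Fbn2 and Fbln2, against 19.3% of all genes tested. They did not overlap for Mfap4 either, which did not pass the filter. Because the set was chosen with this contrast in view, these counts are no test of the members and nothing is read from them. Counts of reads in bulk cells do not tell fewer expressing cells from less RNA per cell.

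At 24 h the pattern of the members differed from that at the other times. Of the 9 members with one direction at 6, 48 and 72 h, 3 had the opposite direction at 24 h, namely Eln, Fbln2 and Fbln5. The library on the iBmp2ko/ko side there was the one set apart above. It lay near iBmp2fx/fx 6 h, with 578 against 611 CPM for Fbln2, 195 against 192 for Fbln5 and 1.19 against 1.61 for Eln. The direction at 24 h is therefore not counted as a genotype difference. In log2(CPM + 0.1), the library labelled iBmp2ko/ko 24 h was nearer to the iBmp2fx/fx than to the iBmp2ko/ko mean for 8 of the 10 members, the exceptions being Fbn1 and Lox. The iBmp2fx/fx library of 24 h was nearer to the iBmp2fx/fx mean for 7 of the 10 and nearer to the iBmp2ko/ko mean for Eln, Fbln2 and Fbln5, the members with the opposite direction at 24 h. Over the 10 members the root mean square distance of the library labelled iBmp2ko/ko 24 h was 0.275 from iBmp2fx/fx 6 h, 0.392 to 0.659 from the other iBmp2fx/fx libraries and 2.49 to 2.63 from the other iBmp2ko/ko libraries. These values follow the distances over all genes given above. The shares of all genes with these traits were not computed, and Mfap4 was near the floor. Nothing about the members is therefore read from the counts of 3, 8 and 7.

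The levels of different members can be compared only per length, as RPKM, which is CPM divided by the exonic length in kilobases (exon lengths of GENCODE release M1 on mm9). Lox and Fbln2 led in every library, and with Fbn1 and Fbln5 they made up 91.9 to 96.9% of the summed RPKM of the 10 genes. In the iBmp2fx/fx cells Lox led with 267 ± 66.8 RPKM, ahead of Fbln2 with 121 ± 20.7, Fbn1 with 41.4 ± 11.1, Fbln5 with 30.8 ± 8.76, Fbln1 with 24.9 ± 4.75 and Mfap2 with 8.28 ± 1.70 RPKM (SD, n = 3). The neighbours Fbn1 and Fbln5, and Fbln5 and Fbln1, lay within their spread, and Fbn1 and Fbln5 changed places between libraries.

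In the iBmp2ko/ko cells Fbln2 stood first with 199.9 ± 62.2 RPKM and Lox second with 184 ± 77.9, a difference within the spread, and Fbln2 led at 6 and 72 h and Lox at 48 h. Fbln5 had 52.5 ± 19.0, Fbn1 32.1 ± 11.1 and Fbln1 21.7 ± 8.04 RPKM, and neighbours among these lay within their spread. Mfap5 came sixth in all 3 iBmp2ko/ko libraries, with 1.60 ± 0.858 RPKM, in the place that Mfap2 held in the iBmp2fx/fx libraries. Mfap2 had 0.195 ± 0.154 and Fbn2 0.220 ± 0.095 RPKM there, which did not differ beyond their spread. The sum over the members was 402 to 605 RPKM in the iBmp2fx/fx libraries of 6, 48 and 72 h and 349 to 573 RPKM in those of the iBmp2ko/ko cells, so the ranges overlapped.

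**Figure D3:**
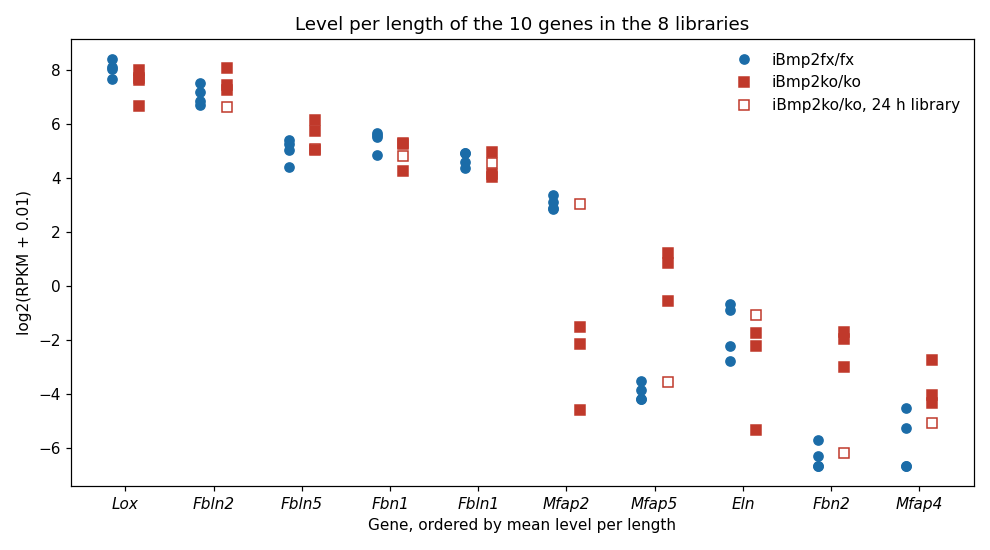
Log2(RPKM + 0.01) of the 10 genes, ordered by mean level, with 1 point per library (iBmp2fx/fx circles, iBmp2ko/ko squares, the library labelled iBmp2ko/ko 24 h open). Lox, Fbln2, Fbn1, Fbln5 and Fbln1 lay well above the other members in both lines, and Mfap2 in the iBmp2fx/fx cells (8.28 ± 1.70 RPKM) and Mfap5 in the iBmp2ko/ko cells (1.60 ± 0.858 RPKM) came next.

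A trend on the log2 of time was tested with genotype as a term. The members were chosen with earlier results of these data known, so this test is not fully separate from their choice. Fbn1 and Lox were the members with the clearest upward slopes, at 0.27 (SE 0.05) and 0.26 (SE 0.09) log2 units per doubling of time. Their unadjusted edgeR p-values were 0.00189 and 0.0227 and their adjusted p-values 0.169 and 0.201, so neither passed the adjusted limit of 0.05. Both genes were lowest at 6 h within each genotype over the 6 libraries. Fbln2 had a slope of 0.15 (edgeR adjusted p = 0.283) and Eln of -0.41 (edgeR adjusted p = 0.338), and the slopes of the other 5 tested members lay between -0.23 and 0.06 with edgeR adjusted p-values from 0.501 to 0.769.

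At the adjusted limit 0 of the 9 members had a trend in edgeR, as did 0% of all genes tested. At an unadjusted p under 0.05, 2 members had an upward and 0 a downward slope, against 10.9 and 10.2% of all genes (21.1% in either direction). DESeq2 called the upward slopes of Fbn1 (adjusted p = 3.21e-05) and Lox (adjusted p = 0.0324), against 5.2% of all genes called upward and 2.78% downward by DESeq2, where the adjusted p of the other alternatives reached 0.787 for both. The slope did not differ detectably between genotypes for any of the 9 members. In the edgeR test of the difference of slopes all 9 had an adjusted p of 1, and 0 passed an unadjusted p under 0.05, against 0.48% of all genes (0.29% with a higher and 0.191% with a lower slope in the iBmp2ko/ko cells). The smallest unadjusted edgeR p was that of Mfap2, 0.173, for a slope lower by 0.53 (SE 0.34) in the iBmp2ko/ko cells. With 3 libraries per genotype, the standard errors of these differences ran from 0.12 for Fbn1 to 0.55 for Eln, so differences of that size were not detectable.

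Other genes of the elastic fibre were examined to see whether the rest of the pathway differed between the genotypes. A list of 46 genes in 4 groups was used, of which 45 were in the table and 36 passed the filter. It was drawn up with earlier results of these data known, so its calls and p-values are given as a description. In edgeR 0 of the 36 were higher and 1 was lower at the adjusted limit, against 0.899 and 1.29% of all genes. At the unadjusted limit 1 was higher (Mfap3l) and 5 were lower (Ltbp2, Fbln7, Adamtsl1, Adamtsl3 and Mmp9), against 3.31 and 4.04% of all genes. With the culture time as a block 1 was higher and 6 were lower, against 3.78 and 4.67%. DESeq2 called 1 higher and 3 lower at the adjusted limit, against 2.07 and 2.95% of all genes. The median log2 fold change of the list was -0.14, with 16 genes above and 20 below 0, against a median of 0.03 over all genes.

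Adamtsl1, a secreted ADAMTS-like protein of the matrix, was the gene that fell at the adjusted limit. It had 13.8, 16.6, 23.4 and 22.1 CPM in the iBmp2fx/fx libraries of 6, 24, 48 and 72 h and 5.62, 15.3, 6.05 and 4.29 CPM in the iBmp2ko/ko libraries. The means over the 6 libraries were 19.8 ± 5.23 and 5.32 ± 0.918 CPM (SD, n = 3 each), with a log2 fold change of -1.90 (SE 0.29, edgeR adjusted p = 0.0243), and the groups did not overlap. Without the iBmp2fx/fx library of 48 h the edgeR adjusted p was 0.138, without that of 72 h 0.0686, without the iBmp2ko/ko library of 6 h 0.0907 and without that of 48 h 0.112. Over all 8 libraries it was 0.483. Of the other 7 tested genes of the ADAMTS and ADAMTS-like group, 0 passed the adjusted limit in edgeR without the block or in DESeq2. Adamtsl3 had 92.1, 119, 125 and 90.2 CPM against 16.7, 95.8, 57.9 and 49.9 CPM, with a log2 fold change of -1.29 (SE 0.44, edgeR adjusted p = 0.250, with the block 0.0109). Adamtsl2, which binds fibrillin-1 and latent TGF-beta binding protein, had 6.59, 0.741, 2.16 and 0.224 CPM against 1.06, 6.28, 0.196 and 0.0386 CPM, with overlapping groups and an edgeR adjusted p of 0.403 (with the block 0.00140).

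Among 13 tested microfibril partners 0 passed the adjusted limit in edgeR without the block, and 3 (Ltbp2, Fbln7 and Mfap3l) passed with it, against 8.45% of all genes. The same 3 passed in DESeq2, against 2.07% of all genes higher and 2.95% lower. Ltbp2, a latent TGF-beta binding protein that joins fibrillin microfibrils and, unlike its relatives, does not bind latent TGF-beta, had 505, 1001, 1217 and 972 CPM in the iBmp2fx/fx libraries and 94.1, 477, 226 and 390 CPM in the iBmp2ko/ko libraries. The 3 iBmp2ko/ko libraries of 6, 48 and 72 h lay below all iBmp2fx/fx libraries, and the library labelled iBmp2ko/ko 24 h was close to iBmp2fx/fx 6 h. The log2 fold change was -1.91 (SE 0.56), with an edgeR adjusted p of 0.186, or 0.00117 with the block and 0.0119 in DESeq2. Fbln7, another fibulin, known for its expression in teeth, had 3.09, 0.812, 2.38 and 0.575 CPM against 0.306, 1.89, 0.327 and 0 CPM, with an edgeR adjusted p of 0.189, or 0.00233 with the block and 0.0140 in DESeq2. Mfap3l, a relative of Mfap3 by name, had 1.93, 1.20, 2.01 and 1.72 CPM against 5.17, 1.93, 3.79 and 2.94 CPM, with a log2 fold change of 1.07 (SE 0.31, edgeR adjusted p = 0.182, with the block 0.0186, in DESeq2 0.0277). For Ltbp2, Fbln7 and Mfap3l the groups of 3 did not overlap, as for 19.3% of all genes tested.

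The cross-linking and processing enzymes and the proteases gave no calls at the adjusted limit in edgeR without the block or in DESeq2. Bmp1, the proteinase that activates pro-lysyl oxidase and trims procollagen, had means of 254 ± 36.0 CPM in the iBmp2fx/fx and 399 ± 83.9 CPM in the iBmp2ko/ko cells (SD, n = 3 each). Its edgeR adjusted p was 0.236, or 0.00601 with the block. Loxl2, a lysyl oxidase relative, had 226 ± 61.6 and 353 ± 48.9 CPM (edgeR adjusted p = 0.322, with the block 0.00866). Tll1, a relative of Bmp1, had 0.729 ± 0.155 and 1.79 ± 1.28 CPM (edgeR adjusted p = 0.377, with the block 0.0585). The log2 fold changes of Bmp1 and Loxl2 with the block were 0.64 and 0.68, below the limit of 1. In this group 0 of 10 genes passed at either edgeR limit. Of 5 tested proteases, Mmp9 had 1.28 ± 0.332 and 0.589 ± 0.121 CPM (SD, n = 3 each), with a log2 fold change of -1.12 (SE 0.39, edgeR adjusted p = 0.257, with the block 0.0338). Mmp2 had an edgeR adjusted p of 0.650 (with the block 0.0104) and Ctsk of 0.735 (with the block 0.0200). Their log2 fold changes with the block were 0.70 and -0.77. Over the 36 genes the library labelled iBmp2ko/ko 24 h was again nearest to iBmp2fx/fx 6 h, at a distance of 0.184. The other iBmp2fx/fx libraries lay at 0.559 to 1.12 and the other iBmp2ko/ko libraries at 1.01 to 1.50, so that iBmp2fx/fx 72 h was farther than 2 of the iBmp2ko/ko libraries.

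**Figure D4:**
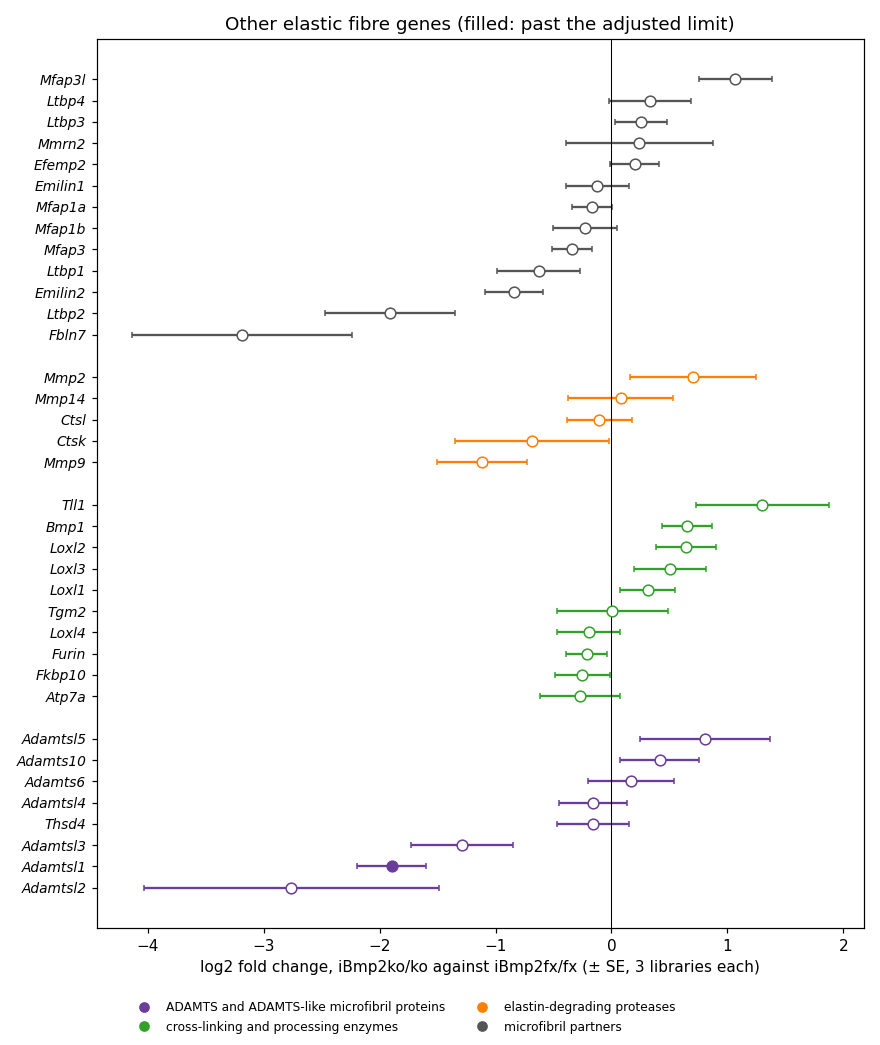
Log2 fold change (iBmp2ko/ko against iBmp2fx/fx, 6 libraries) with its standard error for the other elastic fibre genes that passed the filter, by group, with a filled point past the adjusted limit. Adamtsl1 (-1.90) was the gene past the adjusted limit, 16 of the 36 genes lay above 0 and 20 below it.

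The genes whose pattern was most like that of Mfap2 over the 8 libraries were Rab15 (Pearson r = 0.993 of log2 CPM), a small GTPase, Pkp1 (0.992), a desmosomal plaque protein, Aqp5 (0.991), a water channel, Trp53i11 (0.988) and Ankrd33b (0.988), among 12062 other genes with a mean of at least 1 CPM. None of these 5 is a member or a gene of the elastic fibre list. Aqp5, for example, had 43.3, 39.5, 53.6 and 40.4 CPM in the iBmp2fx/fx and 12.6, 43.2, 6.83 and 4.44 CPM in the iBmp2ko/ko libraries. Rab15 had 7.17, 6.07, 8.70 and 5.27 CPM against 1.06, 8.21, 0.981 and 0.386 CPM. In both genes, as in Mfap2, the library labelled iBmp2ko/ko 24 h was at the iBmp2fx/fx level. Over the 6 libraries r was 0.988 to 0.996 for the 5 genes. Among the members r with Mfap2 was 0.50 for Fbln1, 0.49 for Lox, 0.29 for Fbn1, -0.46 for Fbln5, -0.73 for Fbln2 and -0.89 for Mfap5. The 8 libraries share 2 lines and the separation between them, and these values are descriptions.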

How the data were processed

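Total RNA of the iBmp2fx/fx and iBmp2ko/ko cells was sequenced (Illumina TruSeq libraries) at 6, 24, 48 and 72 h. Per the labels, the authors processed unpaired reads of 50 bases with CASAVA 1.8.2 and TopHat2 2.0.8b on mm9 and deposited HTSeq counts per gene symbol, not normalized. The study's methods name paired reads, and the design text gives 8 h for the 6 h libraries. The annotation and strand setting are not given in the sources used here, so overlapping genes cannot be separated. HTSeq set aside 41.3 to 49.6% of alignments as not unique. Its 5 summary rows were left out, and the lncRNA tables were not used.

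CPM used the reads counted on genes (25890110 to 32415665 per library). RPKM used exon lengths of GENCODE release M1, whose symbols matched 95.7% of the table. Intervals are exact binomial (Clopper-Pearson). edgeR 4.0.16 (R 4.3.3; TMM, filterByExpr with 10 counts and 15 in total, quasi-likelihood test, Benjamini-Hochberg adjustment over 13121 genes) was fitted to the 6 libraries of 6, 48 and 72 h for genotype, for the log2 of time with genotype as a term, and for their interaction. DESeq2 1.42.0 and limma 3.58.1 were alternatives. The scripts were tested on simulated data. No 2 libraries were identical.

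The members and gene lists were chosen with earlier results of these data known. Named genes are the 10 members, Bmp2, listed genes past the adjusted limit or else the 3 with the smallest p per group, and the 5 most like Mfap2. As a check of pairing by culture time, deviations of same-time libraries from their genotype means correlated at r = 0.71 (6 h), 0.54 (48 h) and 0.84 (72 h). Blocked values are therefore given beside unblocked ones for most named genes. Over 8 libraries r was 0.59, -0.27 (24 h), 0.31 and 0.82, so the 24 h libraries do not pair, and the block over 8 libraries is an alternative only. Alternatives were all 8 libraries, 7 libraries, the time block, no filter, no TMM factors, time in hours, and leaving out each library. Python 3.11.15, numpy 2.4.6, pandas 2.3.3, scipy 1.17.1 and matplotlib 3.10.9 were used.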

Additional observations from a re-analysis of the deposited data

Results flagged for a closer look

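Among the 20 sets of 4 libraries examined, 1 held a library far from its group. It was the library labelled iBmp2ko/ko 24 h for Mfap2, whose gap to the nearest iBmp2ko/ko library was 0.962 of the range of the group, above Dixon's critical value for a group of this size. Chance takes about 1 in 20 sets past that value. The Mfap2 values of this library were known when the genes were chosen, so the gap is a description and no separate evidence. For Eln, Fbln2 and Fbln5 the log2 ratio of the library labelled iBmp2ko/ko 24 h to iBmp2fx/fx 24 h was examined. It had the opposite sign to the iBmp2ko/ko ratios at 6, 48 and 72 h. It was 1.17 for Eln, -0.90 for Fbln2 and -0.35 for Fbln5. With 1 library per label at 24 h this difference between times was not tested, and it is not counted as a genotype difference.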

How the results depend on the processing

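All 9 tested members kept the direction of their genotype difference in every alternative that gave a value (14 alternatives, or 12 for Mfap5 and Fbn2, which failed the filter over 8 libraries), as did the 12 other named elastic fibre genes. Over all 8 libraries Mfap2 had a log2 fold change of -1.98, or -3.98 with the replicate block. Of the members, 2 were called higher and 1 lower. Over all 8 libraries, with and without the replicate block, both counts were 0. The replicate block over 6 libraries gave 2 lower, and leaving out each library in turn gave 0 to 2 higher and 0 to 1 lower, with 0 of both without the iBmp2fx/fx or the iBmp2ko/ko library of 48 h. Of the other elastic fibre genes, 0 were called higher and 1 lower. The replicate block gave 1 and 6, DESeq2 1 and 3, all 8 libraries 0 lower with and without the block, and leaving out each library 0 to 1 lower. Of all genes, 118 were called higher and 169 lower. The counts were 0 and 0 over all 8 libraries, 496 and 613 with the replicate block over 6, 9 and 28 with it over 8, 272 and 387 in DESeq2, and 3 to 187 and 6 to 191 without each library in turn. For the trend with time, where the count was 0, DESeq2 called 2 members upward and 642 genes upward and 344 downward. All 8 libraries gave 1 gene upward, time in hours 4, and leaving out each library 0 to 133 upward and 0 to 63 downward. Small trends changed sign when a library was left out. They ranged from -0.48 to 0.029 for Mfap2 (upward without iBmp2ko/ko 6 h, and at 0.0024 without iBmp2ko/ko 72 h), from -0.34 to 0.013 for Mfap5 (upward without iBmp2ko/ko 6 h), from -0.021 to 0.12 for Fbln1 (downward without iBmp2ko/ko 6 h) and from -0.11 to 0.020 for Fbln5 (upward without iBmp2ko/ko 72 h, and at 0.012 without iBmp2fx/fx 72 h). The slope difference of Fbln5 became -0.00046 per hour. With Spearman's correlation 1 of the 5 genes most like Mfap2 (Rab15, at a tied rank of 35) was among its first 50, with Pearson's over 6 libraries 5 of 5. The cause of these changes was not tested, except that fewer libraries lower the residual degrees of freedom. Mfap2, Mfap4, Mfap5, Fbn2 and Eln rest on 12 reads or fewer in at least 1 library of their lower group, which limits their ratios.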
